A study of Mus musculus with 2 samples.

Results

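CD8 T cells without Pdcd1 made up 256 of the 7732 CD45+ cells kept from Colon26 tumours, or 3.31%. A cell was counted among them when its reads, scaled to 10000 reads per cell (CP10k), put Cd8a or Cd8b1 at 2 or more and Trac at 1 or more. Pdcd1 had to be under 0.5, Lyz2 under 5, and Foxp3, C1qa and Ncr1 each under 1, with at most 25% of the cell's reads from mitochondrial genes. The cells were thus chosen by measured levels of these genes, which are described and were not tested. Colon26, a colon carcinoma line of BALB/c mice, was grown under the skin of wild-type BALB/c mice, and the leukocytes of each tumour were taken on day 10 and marked by a hashtag antibody per mouse. The Control group (3 mice) had neither agent as far as the labels tell. The minP1 group (4 mice) had 0.08 µg of minP1, an immunostimulatory peptide of the protein HMGN1, into the peritoneum on day 9. The PDL1 group (3 mice) had 200 µg of an antibody against PD-L1 per injection on days 4 and 8, and the minP1_PDL1 group (4 mice) had both on the same days. The labels call the cells intestinal, whereas the tumours were under the skin of the flank, and no tumour-free tissue was sampled.

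CD8 T cells recognise peptides on MHC class I through the αβ receptor, to which Trac contributes the α constant region, and kill through perforin and granzymes. Resting CD8 T cells are kept quiescent and mobile by factors such as Klf2, which drives S1pr1, the receptor that lets T cells leave tissue for lymph and blood. Tcf7 encodes TCF1, the transcription factor of naive, memory and stem-like CD8 T cells. Pdcd1 encodes PD-1, which T cells gain on antigen stimulation and keep in chronic stimulation, and whose ligand is the target of the antibody used here.

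The values are sequencing reads that were not collapsed to molecules: a nonzero entry held a median of 10 reads. The cells without Pdcd1 had a median of 29609 reads and 1697 genes per cell. CD8 T cells that met the same rule with Pdcd1 at 0.5 CP10k or more, here called Pdcd1-bearing (192 cells), had 66782 reads and 2842 genes. T cells without Pdcd1 in which Cd8a and Cd8b1 both lay under 2 CP10k, here called CD8-low (700 cells), had 18653 reads and 1265 genes. Per mouse, between 8 and 33 cells without Pdcd1 were found, with 239237 (PDL1_3) to 1552780 (minP1_3) reads in sum. All cells came from 1 cDNA library. The labels also speak of separate runs without giving a run for any mouse, so a run could not be told apart from a group.

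The threshold on Pdcd1 lay close to single reads. In 236 of the 256 cells no Pdcd1 read was found, and 20 had at least 1. The 3 cells nearest to the threshold from below stood at 0.466, 0.430 and 0.418 CP10k, and the 3 nearest from above at 0.517, 0.568 and 0.589 CP10k. At the median depth of the cells without Pdcd1, 0.5 CP10k was worth 1.48 reads, and at that of the Pdcd1-bearing cells 3.34 reads. The 256 cells therefore had no or few Pdcd1 reads at their depth, which does not show that PD-1 was absent. When each cell was thinned to 10000 reads, 218 of them were still in the class, and 12 were too shallow to be thinned. The class then held 254 cells, so other cells had entered it, and the Pdcd1-bearing class held 170. Cd8a and Cd8b1 both reached 2 CP10k in 134 cells, Cd8a alone in 67 and Cd8b1 alone in 55. Cd4 stood at 1 CP10k or more in 12 cells.

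Genes that the rule did not use showed T cells of mixed state. Trbc2, the β constant region of the T cell receptor, was found at 1 CP10k or more in 87.9% of the cells, Cd3d in 72.7% and Cd3e in 60.5%. The same genes were found in 15.5%, 8.06% and 2.58% of macrophages of the same tumours (893 cells, with a median of 65655 reads). These macrophages had Lyz2 at 20 CP10k or more, Csf1r at 1 or more, Trac under 1 and Cd8a and Cd8b1 under 2. Leaving out cells with more Trac, Cd8a or Cd8b1 can itself lower the shares of T cell genes among them. Tcf7 was found in 93 cells (36.3%), and in 25% to 52.0% of cells across the 14 mice, against 6.61% of macrophages. S1pr1 was found in 36 cells (14.1%, from 0% to 28.0% across mice), against 2.46% of macrophages. Gzmb, the protease granzyme B, was found in 122 cells (47.7%, from 25% to 66.7% across mice), against 26.0% of macrophages. Nkg7, a cytotoxic granule protein, was found in 77.0% of the cells and 23.1% of macrophages, and the chemokine Ccl5 in 54.7% and 29.2%. Tcf7 and S1pr1, markers given with the label of these cells, were thus found in a minority of them. Gzma, another granzyme, was found in 16.4% of the cells, below its 26.9% in macrophages, and this share cannot be told from background. Ly6c2 (58.6% against 69.5%) was also below its share in macrophages. Ly6c2 also marks monocytes, and these macrophages were the deeper cells, so their share is not a plain background for it. This comparison therefore cannot tell the share of Ly6c2 from reads of other cells.

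The cells were also split at 1 CP10k of Gzmb, here called with and without Gzmb, although the latter still held 5.7 CPM of it in sum. The split is a description of cells pooled over the mice, made after Gzmb had been seen, and carries no test. The 122 cells with Gzmb had a median of 35062 reads and the 134 without it 23252. Tcf7 was found in 24.6% of the cells with Gzmb and 47.0% of those without, and its level in the summed reads was 125.9 and 291.0 CPM (reads scaled to one total for each sum). Ccr7, the chemokine receptor of lymph node entry, was found in 27.0% and 41.0%, and Il7r, the receptor of the survival cytokine IL-7, in 21.3% and 34.3%. S1pr1 was found in 10.7% of cells with Gzmb and 17.2% of those without, and stood at 42.1 and 118.7 CPM. Klf2 was found at like shares (53.3% and 56.0%), while its level in the summed reads was 554.0 and 1006.1 CPM. Prf1, the pore protein perforin, was found in 26.2% of cells with Gzmb and 11.2% of those without, Havcr2, the inhibitory receptor TIM-3, in 21.3% and 6.0%, and Tnfrsf9, the activation receptor 4-1BB, in 51.6% and 29.1%. Lef1 (16.4% and 13.4%) and Lag3 (27.0% and 25.4%) were found at like shares in both. Myeloid transcripts moved with the split: Fcer1g was found in 30.3% of cells with Gzmb and 8.2% of those without, Lyz2 in 19.7% and 8.2%, and Arg1 in 18.9% and 10.4%. Of the 10 macrophage markers, 7 were found in a higher share of cells with Gzmb, which were the deeper cells. C1qc (2.5% and 3.7%) and Fcgr1 (3.3% and 4.5%) were found in a lower share. The rule held C1qa under 1 CP10k, so it could be found in neither, and Lyz2 under 5 CP10k. No share over all genes is given beside this count, and the part of these markers in the split was not tested. The classes were not exclusive: 30 cells held both Tcf7 and Gzmb, 63 Tcf7 alone, 92 Gzmb alone and 71 neither.

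**Figure D1:**
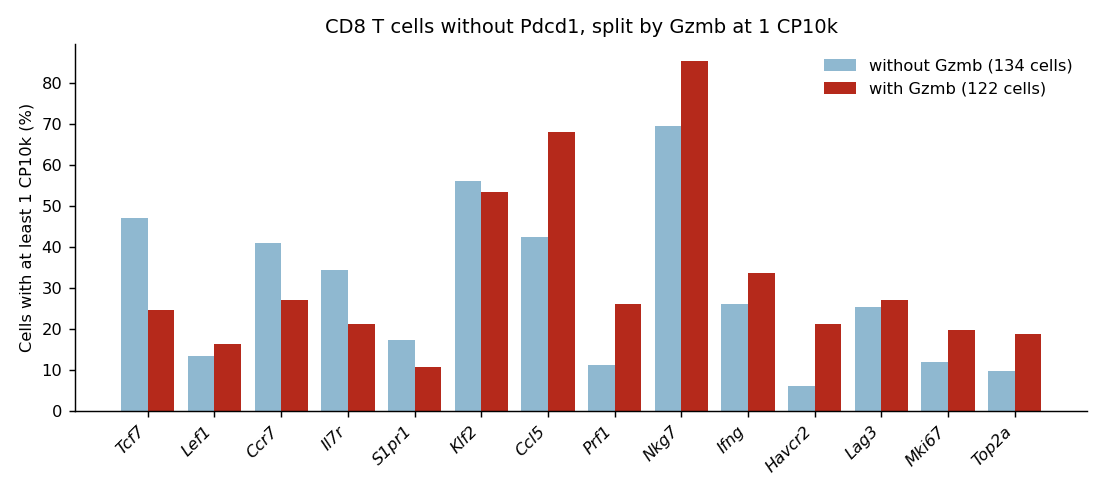
Share of CD8 T cells without Pdcd1 with at least 1 CP10k of each gene on the y axis, for the 134 cells without Gzmb (blue) and the 122 with Gzmb (red), pooled over 14 mice. Tcf7, Ccr7 and Il7r were found in more cells without Gzmb, and Prf1, Havcr2 and Ccl5 in more cells with it, which were also the deeper cells.

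No difference between the groups passed a test for the share of CD8 T cells without Pdcd1 among all kept cells. The share was 3.46% ± 0.471 (SD, n = 3) in Control, 3.74% ± 0.872 (n = 4) in minP1, 3.20% ± 1.23 (n = 3) in PDL1 and 2.80% ± 1.29 (n = 4) in minP1_PDL1. The single mice ran from 3.09% to 3.99% in Control, 2.96% to 4.56% in minP1, 1.79% to 4.08% in PDL1 and 1.46% to 4.55% in minP1_PDL1, so that all groups overlapped. A permutation test of F over the 4 groups gave F = 0.588 and p = 0.627. None of the 5 pairs of groups passed the two-sided exact permutation test (each adjusted p = 0.9 over the 5 pairs). With 3 or 4 mice a group no pair could reach an adjusted p under 0.05 by this test, so it could not have called a difference.

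Among gated CD8 T cells, the cells without Pdcd1 were 52.2% ± 2.06 (SD, n = 3) in Control and 63.6% ± 7.0 (n = 4) in minP1. They were 51.8% ± 15.9 (n = 3) in PDL1 and 55.8% ± 7.78 (n = 4) in minP1_PDL1. The Control mice stood at 50.0%, 52.6% and 54.1%, and the minP1 mice at 73.5%, 58.1%, 63.5% and 59.4%, all above Control. That difference of 11.4 percentage points had p = 0.0571 by the two-sided exact permutation test and an adjusted p of 0.286 over 5 pairs, which did not pass. This p is the smallest that the test can give for 4 against 3 mice. No pair of groups could reach an adjusted p under 0.05, so the miss was fixed by the number of mice. The PDL1 mice were spread widely, at 51.4%, 67.9% and 36.0%, and the minP1_PDL1 mice stood at 48.3%, 63.2%, 61.9% and 50.0%. The permutation test over the 4 groups gave F = 1.29 and p = 0.333. Without PDL1_2 the same permutation test gave F = 3.77 and p = 0.0408, so leaving out 1 mouse changed the call. Thinning each cell to 10000 reads gave 54.8%, 66.5%, 55.8% and 59.3% in Control, minP1, PDL1 and minP1_PDL1.

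**Figure D2:**
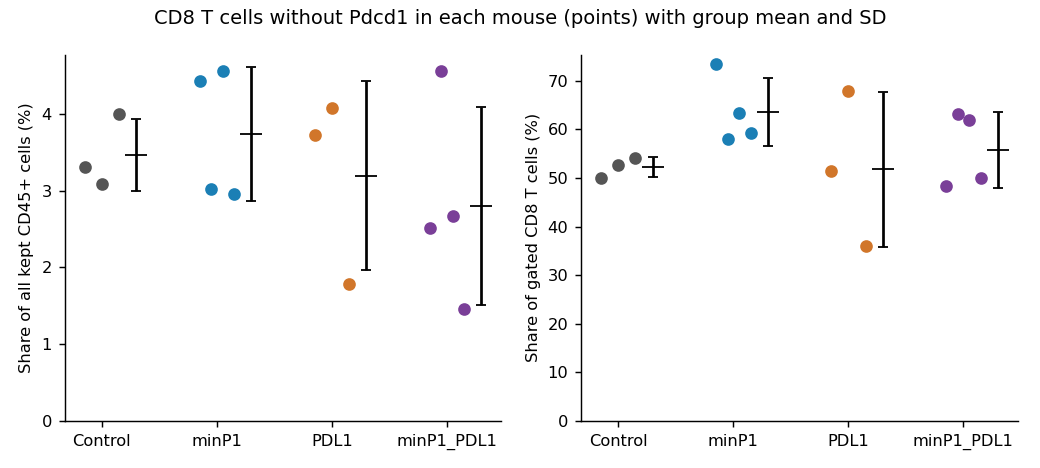
Share of CD8 T cells without Pdcd1 among all kept CD45+ cells (left) and among gated CD8 T cells (right) on the y axes, in percent, with a point for each of the 14 mice and the mean and SD of each group. The 4 groups overlapped in the left plot; in the right plot the 4 minP1 mice (58.1% to 73.5%) lay above the 3 Control mice (50.0% to 54.1%), and PDL1 ran from 36.0% to 67.9%.

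To place the cells against CD8 T cells that carried Pdcd1, reads were summed per mouse and class and compared within mice. The cells without Pdcd1 had more RNA of the quiescence and trafficking genes Klf2, Btg1, Tcf7 and Cxcr4, and of Ly6c2. They had less of Prf1 and of the cell cycle genes Top2a and Hmgb2. Of 6646 genes tested, 144 (2.17%) passed edgeR's quasi-likelihood test at a Benjamini-Hochberg adjusted p under 0.05. Of these, 82 (1.23%) were higher and 62 (0.933%) lower in the cells without Pdcd1. The cells were split on Pdcd1, so this count is given as background and nothing is read from it, and the genes of the rule are left out of it. Of the calls 56.9% were higher with edgeR, 37.2% with DESeq2 (860 calls), 33.5% without a filter on low counts (325 calls), 42.3% with cells of 0 Pdcd1 reads only (201 calls) and 69.6% without the mouse as a block (158 calls). Limma on means of log values gave 8.02% higher of 1483 calls. The median log2 change over all genes was -0.18, and -0.02 without the mouse block.

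Klf2 stood at 354.9, 812.1 and 1175 CPM (lowest, median and highest of 14 mice) in the cells without Pdcd1. In Pdcd1-bearing cells it stood at 61.96, 238.4 and 391.3 CPM. It was higher without Pdcd1 in 14 of 14 mice, with a log2 change of 1.86 ± 0.22 (SE; adjusted p = 2.09e-05). Klf2 lies on chromosome 8 at 72319033 to 72321656 (GRCm38, plus strand). Btg1, which slows proliferation, stood at 1120, 2136 and 2822 CPM against 635.3, 949.3 and 1264 CPM, also higher in 14 of 14 mice (log2 1.15 ± 0.15; adjusted p = 7.58e-05). The lowest mouse without Pdcd1 overlapped the highest with it in both genes, while each mouse differed in the same direction.

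Tcf7 (chromosome 11, 52252371 to 52283014, minus strand) stood at 69.47, 155.0 and 575.7 CPM in the cells without Pdcd1. In Pdcd1-bearing cells it stood at 0, 30.25 and 172.7 CPM, with 1 mouse at 0. It rose in 13 of 14 mice, by 2.51 ± 0.56 on the log2 scale (adjusted p = 0.0171), and did not pass with cells of at least 20000 reads (adjusted p = 0.0922). S1pr1 stood at 2.80, 45.5 and 242.9 CPM, and in Pdcd1-bearing cells at 0 in 9 of 14 mice, with a highest mouse of 34.8 CPM (adjusted p = 0.027). Its reads came from 45 of the 256 cells, and the call was lost without Control_2, minP1_1, minP1_2, PDL1_1, PDL1_2, PDL1_3 or minP1_PDL1_2 (adjusted p from 0.0506 to 0.0677). Lef1, a partner of TCF1 (log2 1.92 ± 0.56; adjusted p = 0.0738), and Il7r (1.53 ± 0.41; adjusted p = 0.0529) did not pass. Ccr7 had no direction (-0.11 ± 0.29; adjusted p = 0.9).

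Of 22 genes listed for naive and memory T cells, 17 were tested and 15 lay above 0, with a median log2 change of 1.53. The 7 that passed included Ly6c1, Klf2, Tcf7, Klf3, S1pr1 and Foxp1. Of 16 genes listed for quiescence, 14 were tested and 14 lay above 0 (median 1.31), and Klf2, Btg1, Tob1, Klf3, S1pr1 and Foxp1 passed. Over all genes tested, 40.2% lay above 0. The list was drawn up with results of these cells known and shares members with the naive and memory list. Klf3 passed at adjusted p = 0.0251 and not without Control_1 (0.0531), and Tob1 at 0.025 and not without PDL1_1 (0.0526), PDL1_2 (0.0538) or minP1_PDL1_2 (0.0626).

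The 250 bases before the start that RefSeq gives for 4 of these genes are shown because Klf2, Klf3 and Btg1 moved together and Prf1 moved the other way. They come from RefSeq on GRCm38.p6, on the gene's own strand: chr8:72318812-72319061 for Klf2, chr5:64803271-64803520 for Klf3, chr10:96616751-96617000 for Btg1 and chr10:61297586-61297835 for Prf1, all on the plus strand. Capitals mark matches on either strand to CACCC, the core letters bound by KLF factors, or GTAAACA, letters bound by FOXO factors. CTTTGA, the core of TCF and LEF sites, was also searched and not found in these windows.
Klf2: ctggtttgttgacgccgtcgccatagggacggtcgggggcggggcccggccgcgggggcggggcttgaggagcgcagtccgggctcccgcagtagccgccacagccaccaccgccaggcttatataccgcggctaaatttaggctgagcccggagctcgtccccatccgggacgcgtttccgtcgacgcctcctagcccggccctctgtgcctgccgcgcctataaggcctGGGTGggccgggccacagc
Klf3: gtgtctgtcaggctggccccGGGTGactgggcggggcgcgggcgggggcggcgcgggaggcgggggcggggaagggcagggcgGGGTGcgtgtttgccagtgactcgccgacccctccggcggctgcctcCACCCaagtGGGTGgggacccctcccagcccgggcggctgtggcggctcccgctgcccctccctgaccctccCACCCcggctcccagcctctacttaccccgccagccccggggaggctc
Btg1: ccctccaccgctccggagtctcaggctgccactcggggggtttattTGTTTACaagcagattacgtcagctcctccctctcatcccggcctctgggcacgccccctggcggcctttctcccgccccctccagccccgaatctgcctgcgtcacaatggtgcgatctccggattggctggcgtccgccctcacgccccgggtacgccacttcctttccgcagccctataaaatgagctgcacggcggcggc
Prf1: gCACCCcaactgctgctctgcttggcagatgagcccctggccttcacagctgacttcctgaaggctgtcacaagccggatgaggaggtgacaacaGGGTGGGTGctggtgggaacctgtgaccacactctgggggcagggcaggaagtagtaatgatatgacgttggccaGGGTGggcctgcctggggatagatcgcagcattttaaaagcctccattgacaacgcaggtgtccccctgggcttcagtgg
CACCC or its complement occurred 1 time in the Klf2 window, 5 times in that of Klf3, 4 times in that of Prf1 and not in that of Btg1. It occurred in 51.3% of 27025 promoter windows of this length, so its presence sets no gene apart. GTAAACA occurred in the Btg1 window and in 3.09% of all windows. The Klf2 window ended past the start of Klf2 given above, which is from GENCODE, and its marked match lay after that start. A match is only a run of letters, and no binding was measured.

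Genes of homing and retention also differed. Cxcr4, the receptor of CXCL12, stood at 67.07, 231.6 and 584.1 CPM without Pdcd1 and at 8.53, 36.6 and 93.9 CPM with it. It was higher in 14 of 14 mice (log2 2.68 ± 0.35; adjusted p = 7.58e-05). Itgb7, an integrin chain of gut and mucosal homing, was 2.56 ± 0.44 higher on the log2 scale in 13 of 14 mice (adjusted p = 0.00158). Cd69, which opposes S1pr1 at the cell surface and marks recent activation or residence, was 1.52 ± 0.20 higher in 14 of 14 mice (adjusted p = 7.58e-05). Of 22 genes listed for migration and residence, 19 were tested, 15 lay above 0 and 7 passed, all higher, among them Cd69, Cxcr4, Itgb7, Ccr2, S1pr1 and Cxcr3. S1pr1 and Cd69, whose products act against each other, were thus both higher in the same summed cells.

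Ly6c2 and Zfp36l2 had the smallest adjusted p of the comparison. Ly6c2 stood at 388.5, 874.5 and 1706 CPM without Pdcd1 against 95.41, 195.1 and 612.0 CPM, higher in 14 of 14 mice (log2 1.94 ± 0.20; adjusted p = 4.57e-06). Ly6c1, its near-identical neighbour on chromosome 15, differed by 1.95 ± 0.22 (adjusted p = 9.32e-06), and reads may be split between the copies. The Ly6C proteins mark memory and interferon-exposed CD8 T cells as well as monocytes. The part of reads from myeloid cells in the Ly6c2 and Ly6c1 differences was not tested. Zfp36l2, an RNA-binding protein that shortens the life of cytokine messages, was 1.3 ± 0.13 higher on the log2 scale (adjusted p = 4.57e-06). Ifngr1, a chain of the interferon gamma receptor, was 1.43 ± 0.20 higher (adjusted p = 0.000166), and both were higher in 14 of 14 mice. Of 34 genes listed as induced by type I interferon, 20 were tested and 19 lay above 0, with a median log2 change of 0.86, and only Ly6c2 and Ly6a passed. Of 23 immediate early genes tested, 22 lay above 0 (median 0.72), and Btg1, Cd69, Dusp2, Zfp36 and Nfkbia passed. Zfp36 did not pass without Control_1, Control_2, minP1_1, minP1_2, PDL1_1, PDL1_2, minP1_PDL1_1 or minP1_PDL1_4 (adjusted p from 0.056 to 0.0793). Fos did not pass (0.93 ± 0.30; adjusted p = 0.116).

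**Figure D3:**
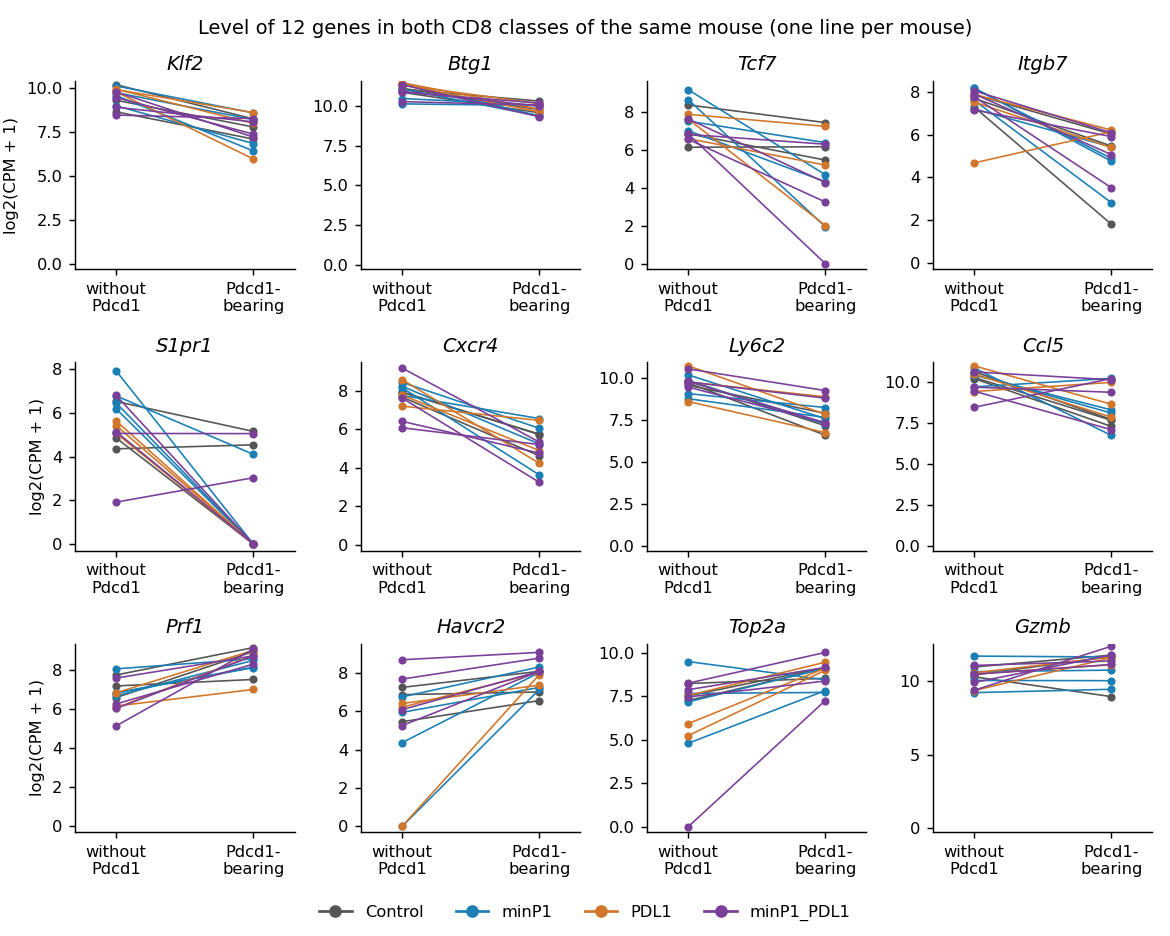
Level of 12 genes as log2(CPM + 1) on the y axis, in cells without Pdcd1 (left of each plot) and Pdcd1-bearing cells (right), with a line for each of the 14 mice coloured by group. Lines of Klf2, Cxcr4 and Ly6c2 slope down in 14 of 14 mice and those of Prf1 and Havcr2 slope up in 14 of 14, while S1pr1 was at 0 in Pdcd1-bearing cells of 9 mice.

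Cytotoxic genes did not move as a group. Prf1 stood at 34.15, 105.9 and 264.3 CPM without Pdcd1 against 126.7, 398.3 and 563.0 CPM with it. It was lower in 14 of 14 mice (log2 -1.73 ± 0.26; adjusted p = 0.000315). Cst7, an inhibitor of granzyme-activating proteases, was also lower (-1.17 ± 0.25; adjusted p = 0.0111). Ctsw, a cathepsin of killer cells, was higher (0.90 ± 0.19; adjusted p = 0.0104), as were Srgn, the proteoglycan core of the granule (0.70 ± 0.15; adjusted p = 0.0111), and Ccl5 (1.68 ± 0.39; adjusted p = 0.0234). Ccl5 stood at 346.5, 1289 and 2004 CPM against 105.0, 290.9 and 1178 CPM, and its call was lost without Control_1, minP1_1, PDL1_2 or PDL1_3 (adjusted p from 0.0502 to 0.0538). Gzmb, at 600.7, 1416 and 3408 CPM against 497.3, 2926 and 5447 CPM, did not pass (-0.76 ± 0.24; adjusted p = 0.1). Nor did Nkg7 (-0.39 ± 0.12; adjusted p = 0.0926) or Ifng (-0.88 ± 0.39; adjusted p = 0.251). Of 25 genes listed as cytotoxic, 23 were tested, 9 lay above 0, 3 passed as higher and 2 as lower.

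Of 26 genes listed for inhibition and exhaustion, 22 were tested and 8 (36.4%) lay above 0, with a median of -0.33. This share was near that over all genes tested, of which 40.2% lay above 0, with a median of -0.18. The 3 that passed were all lower, Havcr2 and Tnfrsf9 among them. Havcr2 stood at 0, 70.26 and 412.4 CPM without Pdcd1, with 2 mice at 0, against 93.32, 259.8 and 539.2 CPM, and was lower in 14 of 14 mice (log2 -1.87 ± 0.44; adjusted p = 0.0251). It did not pass without minP1_PDL1_1 (adjusted p = 0.0528) or without the mouse as a block (0.102). Tnfrsf9 was lower in 14 of 14 mice (-1.10 ± 0.27; adjusted p = 0.0302) and did not pass without minP1_1, minP1_2, PDL1_3 or minP1_PDL1_1 (adjusted p from 0.0534 to 0.0637) or without the mouse block (0.0749). Tox, the transcription factor of exhaustion (-1.48 ± 0.44; adjusted p = 0.0787), and Lag3, a receptor that binds MHC class II (-0.91 ± 0.30; adjusted p = 0.117), did not pass.

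All 30 genes listed for the cell cycle were tested and 0 lay above 0, with a median of -1.57. Those that passed were Hmgb2, Top2a, Rrm1, Tubb5, Cdk1 and Ccna2. Top2a, the topoisomerase of dividing cells, stood at 0, 179.2 and 722.9 CPM without Pdcd1 against 152.2, 529.9 and 1042 CPM and was lower in 13 of 14 mice (log2 -1.75 ± 0.38; adjusted p = 0.0133), though not past the threshold without the mouse block (0.0749). Rrm1 was lost without minP1_1 (adjusted p = 0.0572) or PDL1_1 (0.0515), and Tubb5 without minP1_1 (0.0597), PDL1_1 (0.0526) or PDL1_2 (0.0541). Mki67 did not pass (-1.01 ± 0.37; adjusted p = 0.156). The glycolytic enzymes Gapdh (-0.51 ± 0.10; adjusted p = 0.005) and Ldha (-0.53 ± 0.11; adjusted p = 0.00914) were lower, 2 of 19 tested.

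**Figure D4:**
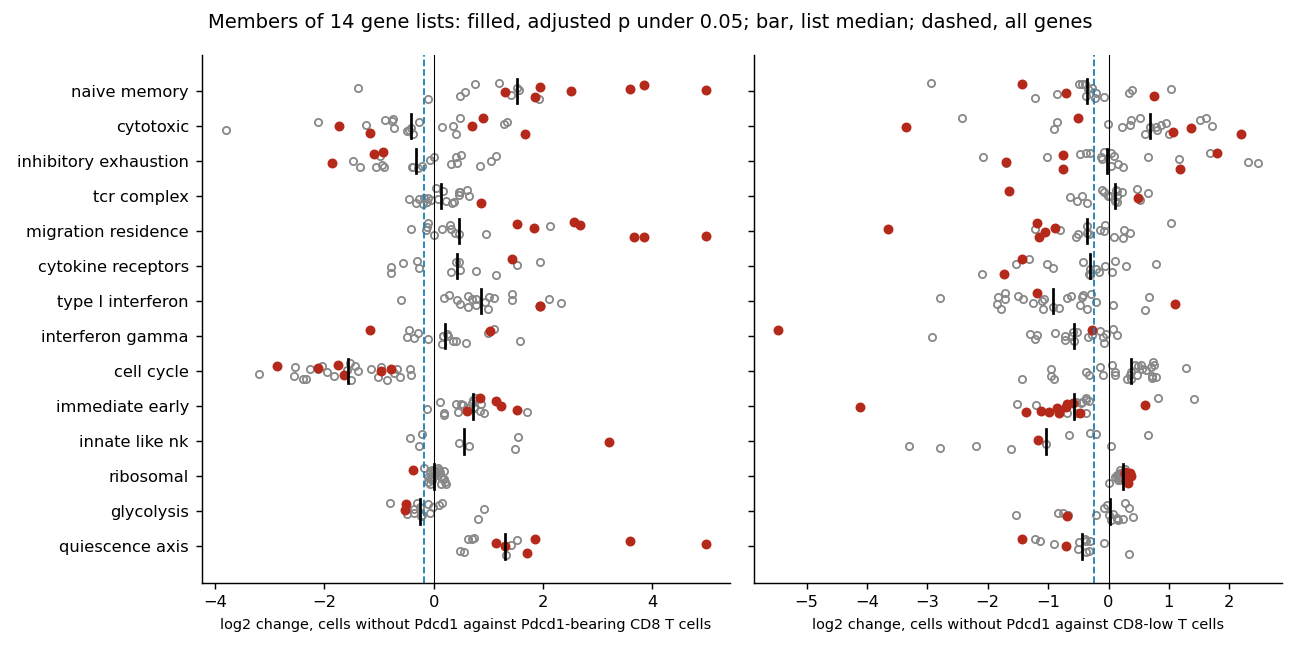
The log2 change of each tested member of 14 gene lists (x axis) in CD8 T cells without Pdcd1, against Pdcd1-bearing CD8 T cells (left) and against CD8-low T cells (right). Filled points passed the test, bars are list medians and the dashed line is the median of all genes. The cell cycle list lay below 0 throughout on the left (median -1.57), and the quiescence list lay above 0 on the left (1.31) and mostly below on the right (-0.44).

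Some markers of myeloid cells were higher in this comparison, and others were not. Itgam, the integrin CD11b, was 3.22 ± 0.62 higher on the log2 scale (adjusted p = 0.00545), in 14 of 14 mice, and its reads came from 48 of the 256 cells. Of 10 macrophage markers, 2 could be tested, both lay above 0, and Arg1 passed (3.13 ± 0.79; adjusted p = 0.0366). Of 6 monocyte markers, 3 could be tested, and Ly6c2 and Ccr2 passed (Ccr2 1.83 ± 0.35; adjusted p = 0.00543). The summed level of the macrophage markers was 96.3, 385.7 and 2528 CPM (lowest, median and highest mouse) without Pdcd1 and 24.4, 95.3 and 510.9 CPM with it, against 13318 CPM in macrophages. The rule capped Lyz2 and C1qa of this sum in both CD8 classes, and the macrophages were chosen by Lyz2 and Csf1r. The gap to macrophages was thus partly fixed by the choice of cells. The summed level of the monocyte markers was 1123, 1884 and 3736 CPM without Pdcd1 against 585.5, 1407 and 2068 CPM. This sum holds Ly6c2 and Ccr2, which passed, so it is not separate from their calls. It does not show that the other monocyte markers were higher. In neither class was a macrophage or monocyte marker without reads. The summed neutrophil markers were lower in the median mouse without Pdcd1 (129.0 against 188.1 CPM), although 3 of 4 tested members lay above 0. Those of plasmacytoid dendritic cells were also lower (523.4 against 789.1 CPM), and Irf8 of that list passed as lower. Those of dendritic cells were higher (1520 against 893.2 CPM). The part of these reads, and of the depth of the cells, in the calls was not tested.

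With cells of at least 20000 reads only, 62 genes passed, all of them among the 144, and 35 of the 47 genes named by rule kept their call, Klf2, S1pr1, Prf1 and Top2a among them. With 10 cells as the minimum per mouse and class 9 mice were left and 25 genes passed, and Klf2, Cxcr4, Ly6c2, Itgb7 and Prf1 kept their call while Tcf7, S1pr1, Itgam, Havcr2 and Top2a did not. The count was 93 without minP1_1, 92 without PDL1_2 and 94 without minP1_PDL1_1.

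The second comparison was with CD8-low T cells without Pdcd1 of the same mice, which held reads of CD4 T cell, γδ T cell and type 2 innate lymphoid cell markers. The CD8 cells without Pdcd1 had more RNA of Nkg7 and Klrc1 and of ribosomal proteins, and less of Il7r and of immediate early genes such as Fos and Nfkbia. Of 7095 genes tested, 146 (2.06%) passed, 48 (0.677%) higher and 98 (1.38%) lower. The cells were split on CD8, so nothing is read from this count, and the comparison shares its first class with the one before. Higher calls were 32.9% of all with edgeR, 45.3% without the mouse block (128 calls), 19.9% without a filter on low counts (261 calls) and 82.5% with limma on means of log values (428 calls). The median log2 change over all genes was -0.24, and -0.02 without the mouse block and 0.03 with limma.

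Nkg7 stood at 767.6, 1130 and 2164 CPM in the CD8 cells and at 284.6, 481.3 and 952.6 CPM in CD8-low cells. It was higher in 13 of 14 mice (log2 1.36 ± 0.18; adjusted p = 0.000173). Klrc1, the NKG2A chain that binds a non-classical MHC molecule, stood at 201.9, 666.7 and 1660 CPM against 36.5, 145.3 and 294.6 CPM and was higher in 13 of 14 mice (log2 2.19 ± 0.32; adjusted p = 0.0011). Ctsw (1.08 ± 0.20; adjusted p = 0.0059) and Ms4a4b, a membrane protein of T cells (0.70 ± 0.12; adjusted p = 0.0037), were also higher. Of 23 cytotoxic genes tested, 17 lay above 0, against 34.0% of all genes tested, 3 passed as higher and 2, Klrg1 and Srgn, as lower. Gzmb (0.37 ± 0.17; adjusted p = 0.401), Prf1 (1.01 ± 0.42; adjusted p = 0.316), Ifng (1.52 ± 0.52; adjusted p = 0.167), Ccl5 (0.60 ± 0.21; adjusted p = 0.178) and Havcr2 (2.48 ± 0.75; adjusted p = 0.102) did not pass. Klrg1 did not pass without Control_2 (0.0621), PDL1_2 (0.0543), minP1_PDL1_2 (0.0505) or minP1_PDL1_4 (0.0517), and Srgn not without Control_1, Control_2, any minP1 mouse, PDL1_2, PDL1_3, minP1_PDL1_3 or minP1_PDL1_4 (adjusted p from 0.0512 to 0.0729).

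All 24 listed ribosomal protein genes lay above 0, with a median log2 change of 0.24, and 11 passed. Outside that list Rpl41 stood at 3070, 3609 and 4325 CPM against 2472, 2706 and 3095 CPM, higher in 14 of 14 mice (0.37 ± 0.06; adjusted p = 0.0011). These differences were small, at most 1.42-fold among those named (Rps26). With cells of at least 20000 reads, Rpl41, Rpl34, Rpl6 and Rps26 kept their call and Rps18 (adjusted p = 0.117), Rpl3 (0.0928), Rps20 (0.0628) and Rpsa (0.197) did not.

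Genes of rest and trafficking did not set the CD8 cells above CD8-low cells. Il7r stood at 100.9, 200.0 and 636.9 CPM against 455.0, 559.4 and 832.0 CPM and was lower in 13 of 14 mice (log2 -1.43 ± 0.22; adjusted p = 0.00111). Klf2 stood at 355.8, 812.4 and 1173 CPM against 813.1, 1247 and 1765 CPM and was lower in 14 of 14 mice (-0.71 ± 0.13; adjusted p = 0.00401), but did not pass with cells of at least 20000 reads (adjusted p = 0.237). Cxcr4 was lower (-1.18 ± 0.23; adjusted p = 0.00708) and also did not pass there (0.106). Tcf7 (-0.34 ± 0.25; adjusted p = 0.668) and S1pr1 (-1.21 ± 0.39; adjusted p = 0.135) did not pass. Ly6c2 was higher than in CD8-low cells too (1.09 ± 0.21; adjusted p = 0.00657), though not with cells of at least 20000 reads (0.142).

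Of 24 immediate early genes tested, 3 lay above 0 (median log2 change -0.57, beside 34.0% above 0 and -0.24 over all genes) and 10 passed as lower, and Dusp2, a phosphatase that such signals induce, passed as higher. Fos, a subunit of the AP-1 factor, stood at 270.5, 530.6 and 1914 CPM against 822.9, 1244 and 2170 CPM (log2 -0.98 ± 0.15; adjusted p = 0.00111), lower in 13 of 14 mice. Nfkbia, the inhibitor of NF-κB, was lower in 14 of 14 mice (-0.71 ± 0.09; adjusted p = 0.00016). Dusp2 (0.60 ± 0.16; adjusted p = 0.0463) passed without minP1_2, PDL1_1 or minP1_PDL1_3 but not without any of the other mice (adjusted p from 0.0626 to 0.103). Nr4a2, a nuclear receptor induced by T cell receptor signals, was higher (1.19 ± 0.20; adjusted p = 0.00201) in 13 of 14 mice.

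Some markers of other cell types passed as lower in the CD8 cells. All 5 tested CD4 T cell markers lay below 0, with Izumo1r (-2.03 ± 0.47; adjusted p = 0.0217) and Icos (-0.77 ± 0.19; adjusted p = 0.031) past the threshold. All 5 tested regulatory T cell markers lay below 0, and Tnfrsf4, Il2ra and Ctla4 passed. Il2ra was lost without Control_2, PDL1_2 or minP1_PDL1_2 (adjusted p from 0.0569 to 0.06), and Ctla4 without Control_2, any minP1 mouse, PDL1_2 or any minP1_PDL1 mouse (0.0584 to 0.101). Both tested γδ T cell markers, Il17a and Trdc, passed as lower, as did Rora, Areg and Il1rl1 of 4 tested markers of type 2 innate lymphoid cells. The summed level of the γδ markers was 0, 58.5 and 204.9 CPM in the CD8 cells against 20.2, 253.3 and 535.7 CPM, and that of the regulatory markers 489.6, 824.9 and 1522 CPM against 1203, 1767 and 2626 CPM. No marker of NK cells (3 tested, 1 above 0) or B cells (2 tested, 0 above 0) passed. All 6 tested neutrophil markers lay below 0 (median -2.32), S100a8 passed (-3.94 ± 0.95; adjusted p = 0.0283), and their summed level was 46.0, 129.0 and 1879 CPM in the CD8 cells against 156.3, 986.7 and 2547 CPM. The part of these reads in the other calls was not tested. Sox13 of the γδ list and Il13 and Il5 of the type 2 list had no reads in the CD8 cells. The depth of the classes differed (18653 reads in CD8-low cells), and with cells of at least 20000 reads 41 genes passed, 40 of them among the 146, and 23 of the 47 genes named by rule kept their call. The count was 80 without Control_2 and 95 without minP1_1.

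No gene passed between treatments within the CD8 T cells without Pdcd1. In a single edgeR fit of the 4 groups over 14 mice, 0 of 8883 genes (0%) passed in each of the 5 comparisons. At an unadjusted p under 0.05 there were 297 genes for minP1 against Control, 435 for PDL1 against Control, 420 for minP1_PDL1 against Control, 550 for minP1_PDL1 against PDL1 and 436 for minP1_PDL1 against minP1. Chance alone would put a fraction of 0.05 of the 8883 genes there, and of the 5 counts only 550 lay above that. DESeq2 called 1, 1, 3, 4 and 17 genes in the same order of comparisons. The calls of the first 4 comparisons, named after they were seen, were Mmp13, then Ccl1, then Pitrm1, Setd5 and Ufm1, then Ccl1, Gm5486, Golga5 and Pf4. In minP1_PDL1 against minP1, 13 of the 17 were higher, among them the myeloid genes Slpi, Cxcl3, Pf4, S100a9 and Acod1. Srgn (log2 0.85; adjusted p = 0.0449 by DESeq2) and Egr1, an immediate early factor (1.74; adjusted p = 0.0273 by DESeq2), were also among them. Comparisons that share a group share its mice, and 8 to 33 cells a mouse limit what can be found.

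The genes of smallest p are given as values, 3 for each comparison. Hspa5, the chaperone BiP of the endoplasmic reticulum, stood at 1200, 1684 and 3398 CPM in the Control mice and at 908.3, 1188, 931.5 and 599.3 CPM in the minP1 mice. The ranges did not overlap (unadjusted p = 0.000563, adjusted p = 1 by edgeR), and 31.6% of the Control reads lay in 1 cell. Actg1, a cytoplasmic actin, stood at 3901, 3751 and 3584 CPM in Control and at 2681, 2336 and 2584 CPM in PDL1 mice, again without overlap (adjusted p = 0.958 by edgeR). It was read in 55 of 56 Control and 46 of 46 PDL1 cells, with 3651, 3387, 2744 and 3774 CPM in minP1_PDL1 mice. Erdr1 stood at 945.4, 1158 and 1238 CPM in PDL1 and at 379.3, 513.4, 755.7 and 503.7 CPM in minP1_PDL1 mice (adjusted p = 0.798 by edgeR). Ufm1, a small protein modifier, stood at 21.5, 18.3 and 14.3 CPM in Control and at 135.3, 52.2, 237.2 and 220.9 CPM in minP1_PDL1 mice (adjusted p = 1 by edgeR), and in 9 of 56 and 19 of 59 cells.

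The other genes of smallest p rested on few cells. Pitrm1, a mitochondrial peptidase, was read in 6 of 56 Control cells, 14 of 95 minP1 cells and 0 of 59 minP1_PDL1 cells. That count allows a share of cells with a read of up to 5.08%, a limit for counting error in these pooled cells only, and does not limit the share of cells that express the gene. Gm5486 was read in 7 of 56 Control, 11 of 59 minP1_PDL1 and 0 of 46 PDL1 cells (up to 6.52%), Golga5 in 7, 6 and 1 of the same cells, and Cyp51 in 8 of 56 Control and 1 of 59 minP1_PDL1 cells. Slpi, a protease inhibitor of myeloid and epithelial cells, was read in 4 of 56 Control, 5 of 59 minP1_PDL1 and 0 of 95 minP1 cells (up to 3.16%), and 83.0% of its Control reads lay in 1 cell. Cxcl3, a neutrophil chemokine, was read in 4 Control, 9 minP1_PDL1 and 2 minP1 cells. Pf4, a chemokine of platelets and macrophages, was read in 6 of 59 minP1_PDL1 and 4 of 95 minP1 cells. Beside these, the summed level of the neutrophil markers ran from 125.4 to 1311 CPM in Control, 53.5 to 110.4 in minP1, 46.0 to 146.2 in PDL1 and 72.0 to 1879 in minP1_PDL1 mice. That of the macrophage markers ran from 405.4 to 1419, 138.4 to 374.3, 119.0 to 1995 and 96.3 to 2528 CPM in the same order. Their part in these values was not tested.

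**Figure D5:**
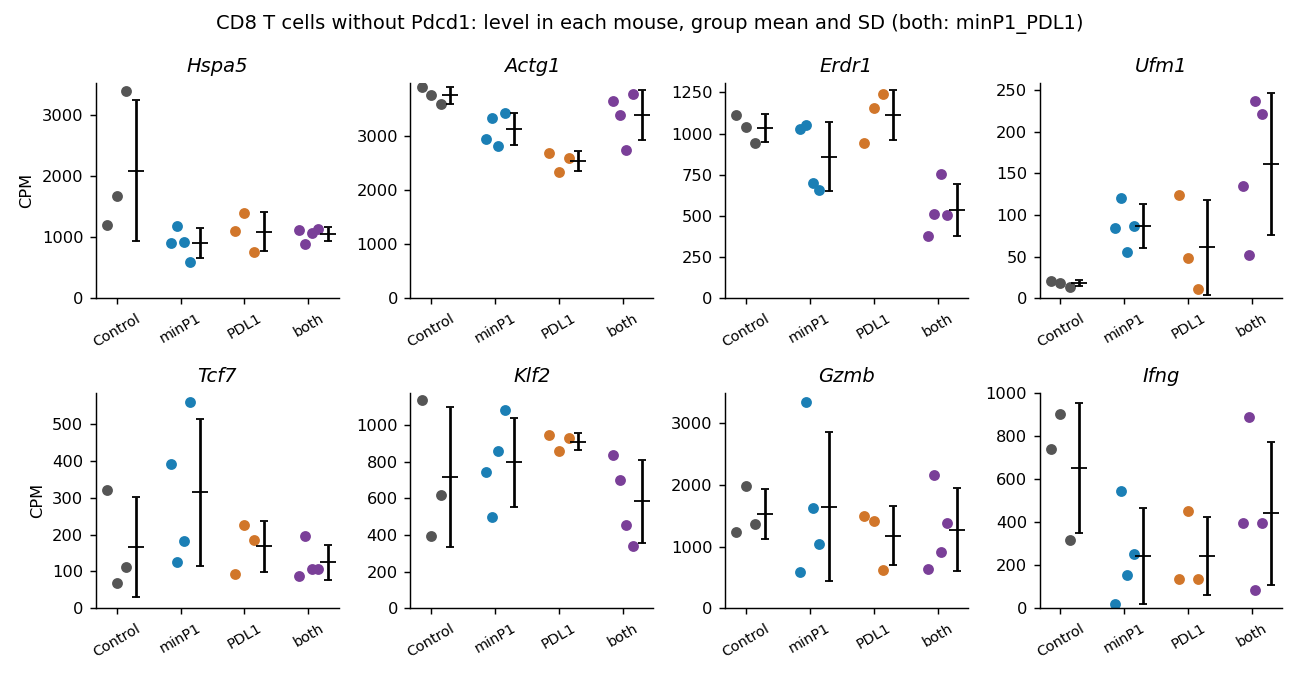
CPM of 8 genes in CD8 T cells without Pdcd1 on the y axes, with a point for each mouse and the mean and SD of each group; both stands for minP1_PDL1. Hspa5 in Control (1200 to 3398 CPM) and minP1 (599.3 to 1188) and Actg1 in Control and PDL1 do not overlap, Tcf7 and Gzmb overlap in all groups, and no gene passed the adjusted test.

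Genes that describe the state of these cells did not pass between groups. Tcf7 stood at 319.2, 67.8 and 111.1 CPM in Control, 391.8, 125.8, 181.5 and 558.1 in minP1, 93.0, 226.6 and 184.6 in PDL1, and 88.2, 194.9, 107.0 and 107.8 in minP1_PDL1 mice. Klf2 stood at 1137, 393.9 and 617.4 CPM in Control, 746.1, 501.0, 858.1 and 1084 in minP1, 943.0, 858.1 and 926.8 in PDL1, and 838.1, 700.1, 455.8 and 342.1 in minP1_PDL1. Gzmb stood at 1233, 1984 and 1359 CPM in Control, 586.4, 3346, 1620 and 1039 in minP1, 1499, 1408 and 623.0 in PDL1, and 636.6, 2162, 918.5 and 1382 in minP1_PDL1. For Tcf7 and Gzmb all groups overlapped. For Klf2 the PDL1 mice lay above all minP1_PDL1 mice, and that difference did not pass (adjusted p = 0.843 by edgeR). Ranges also did not overlap for Nkg7 in minP1 (784.8 to 1058 CPM) and Control (1217 to 2106 CPM). The same held for Tox in minP1 (23.78 to 57.11 CPM) and Control (65.21 to 138.1 CPM). Ccr7 stood at 491.2 to 923 CPM in PDL1 and 294.7 to 407.9 CPM in Control, again without overlap. None of these differences passed. Ifng, the cytokine of activated T cells, stood at 741.5, 902.5 and 317.4 CPM in Control, 20.0, 545.9, 153.7 and 250.5 in minP1, 138.3, 451.3 and 138.4 in PDL1, and 397.0, 888.2, 83.7 and 396.0 in minP1_PDL1, with the lowest Control mouse inside the range of each treated group.

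Gene lists are given by count, since no member passed in edgeR. Of the 25 cytotoxic genes, 5 lay above 0 in minP1 against Control, with a median log2 difference of -0.77, beside 53.0% above 0 and a median of 0.06 over all genes. In PDL1 against Control 6 lay above 0 (median -0.68, beside 45% and -0.11), and in minP1_PDL1 against Control 7 (median -0.42, beside 48.3% and -0.03). These 3 comparisons share the Control mice. Of the 30 cell cycle genes, 22 lay above 0 in minP1 against Control (median 0.68), 11 in PDL1 against Control (-0.51) and 10 in minP1_PDL1 against Control (-0.26). In minP1_PDL1 against minP1 3 of them did (-0.83), beside 45.8% and a median of -0.09 over all genes, and in minP1_PDL1 against PDL1 17 did (0.14), beside 53.2% and 0.08. The minP1 mice differed widely, with Top2a at 26.2, 141.5, 201.3 and 700.8 CPM, beside 147.4, 293.4 and 177.8 CPM in Control. Mki67 stood at 34.9, 115.7, 314.8 and 535.9 CPM in minP1, beside 151.7, 157.8 and 84.1 CPM in Control. How far these counts rest on single mice was not tested. Of the 24 ribosomal protein genes, 20 lay above 0 in minP1 against Control (0.13) and 0 in minP1_PDL1 against minP1 (-0.20), which share the minP1 mice. Of the 20 tested naive and memory genes, 10, 9 and 11 lay above 0 in minP1, PDL1 and minP1_PDL1 against Control. Of 33 tested type I interferon genes, 10, 20 and 17 lay above 0 against Control, with medians of -0.23, 0.23 and 0.02, and 11 did in minP1_PDL1 against PDL1 (median -0.35) and 22 in minP1_PDL1 against minP1 (0.52).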

How the data were processed

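CD45+ cells of 14 tumours, 1 per mouse, were read in 1 BD Rhapsody cDNA library with a hashtag per mouse. The submitters' processing notes name cutadapt 2.10, Bowtie2 2.3.4.1, Seurat 2.3.4 and the build mm10. The role and order of each tool are not given in the sources used here. The authors deposited raw counts, as whole numbers, for 8262 barcodes and 22836 genes. Nonzero entries had a median of 10, and 18.0% were 1, as in counts of reads not collapsed to molecules. Reads are therefore not independent molecules, and the mouse was the unit of every test. Of the barcodes, 141 named as doublets and 6 without a hashtag (147 columns in all) were not used, no further doublet caller was run, and 7732 of 8115 were kept at no more than 25% mitochondrial reads.

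Counts were summed per mouse and class (at least 5 cells) and tested with edgeR 4.0.16 (TMM, filterByExpr, quasi-likelihood F test, two-sided, Benjamini-Hochberg over all genes). The treatments were fitted as 4 groups in 1 fit, and the classes with the mouse as a block. CPM are TMM-scaled, the SE is the log2 change over the root of F, and summed marker levels and the levels split by Gzmb are unscaled. Shares were compared by permutation (100000 permutations over the 4 groups, exact for pairs). DESeq2 1.42.0, limma 3.58.1, other normalization, filters, gates and depths, and leaving out each mouse were alternatives. Cells of at least 20000 reads were an alternative chosen after seeing the data. The scripts were tested on simulated data.

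Named genes were up to 12 in each direction by adjusted p, up to 4 per list and direction, 25 always computed, and the 3 of smallest p where fewer passed; Arg1, Ccr2, Izumo1r and Icos are list members given values after these were seen. The members, the 14 gene lists and the 17 marker lists were chosen with earlier results of these data known, so no list is independent support. The labels do not tie mice to runs, and the p-values measure the spread between these mice. Positions are from GENCODE M21 (GRCm38), the build of mm10. The hashtag library was not analysed here, and some genes are not reported here.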

Additional observations from a re-analysis of the deposited data

Results flagged for a closer look

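Prf1 in the CD8 T cells without Pdcd1 stood at 263.8 CPM in minP1_3, far above the other minP1 mice at 98.9, 107.8 and 109.8 CPM. The gap to the next mouse was 0.934 of the range of the group. Of 22 groups of mice examined in this way chance alone would single out about 5%, and the mouse also had the most cells of the class (33).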

How the results depend on the processing

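Counts of genes past the threshold moved with the tool, the filter on low counts, the minimum of cells and the minimum of reads. DESeq2 gave 1, 1, 3, 4 and 17 genes for minP1, PDL1 and minP1_PDL1 against Control, minP1_PDL1 against PDL1 and minP1_PDL1 against minP1, 860 against Pdcd1-bearing cells and 600 against CD8-low cells. Without a filter on low counts these were 15, 8, 3, 23, 33, 325 and 261. Against Pdcd1-bearing and CD8-low cells, limma on means of log values gave 1483 and 428, a minimum of 10 cells 25 and 76, and cells of at least 20000 reads 62 and 41; the cause was not tested. Leaving out each mouse gave 92 to 191 genes against Pdcd1-bearing cells, 80 to 145 against CD8-low cells and 0 in each treatment comparison. No named gene that passed changed direction under any alternative. Of genes that missed the threshold, Ccr7 against Pdcd1-bearing cells turned to 0.005 with cells of 0 Pdcd1 reads and 0.034 with 10 cells (-0.294 to 0.028 without a mouse), and Tcf7 against CD8-low cells to 0.035 with limma. For PDL1 against Control, the share of kept cells turned to 0.238 points after thinning (-0.707 to 0.439 without a mouse), and the share of gated CD8 T cells to 1.02 after thinning, 0.354 without the mitochondrial filter and 1.05 with Trac at 2 (-8.51 to 7.41 without a mouse). For minP1_PDL1 against PDL1 these ranges were -1.10 to 0.0491 and -3.81 to 12.1, and F over the groups for gated CD8 T cells ran from 0.595 to 3.77. With the replicate number as a block 0 genes passed in each of the 5 treatment comparisons; the numbers do not pair the mice, since 1 of 19 same-numbered pairs correlated over 0.1 (median 0.008, against -0.004 for other pairs).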
